A study of Saccharomyces cerevisiae with 24 samples.

Results

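The genes described here encode the proteasome of budding yeast, Saccharomyces cerevisiae. They were taken as all rows whose standard symbol in the R64 annotation is RPN, RPT, PRE or PUP followed only by digits, plus SCL1. This rule found 34 genes among the 6157 features of the table, and all 34 passed the filter on low counts. Of them, 32 encode subunits. RPN4 encodes the transcription factor that drives proteasome genes, and RPN14 encodes an assembly chaperone. Their polyadenylated transcripts were measured in 24 libraries from diploid cells held in sporulation medium, where starved yeast enters meiosis. Copper sulfate at 50 µM had been added to all cultures 3 h after transfer.

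The 8 groups had 3 libraries each, and all were MATa/alpha diploids with trp1::hisG, his3::hisG and leu2::hisG alleles together with ura3, lys2 and ho::LYS2. In 6 of them the native PHO92 gene was replaced with a hygromycin marker and an HA-tagged PHO92 was expressed from the copper-inducible CUP1 promoter at the trp1 locus. No protein amounts are in the files used here, so less of a mutant protein and a changed function cannot be told apart. The encoded protein lacked residues 35 to 42 (Δ35–42), carried L35A, L38P, I39A or W177A, or was the unchanged protein (CUP1-PHO92). The pho92Δ strain had the hygromycin marker in place of PHO92 and no transgene, and the wild type (WT) had native PHO92. Pho92 reads the N6-methyladenosine (m6A) mark on mRNA through its YTH domain. Each group was 1 strain, and nothing in the labels says that the 3 libraries came from separate cultures, so p-values measure the spread between these libraries, which may be technical. For I39A the genotype field says L39A, and the table's header gives the W177A libraries the strain number of CUP1-PHO92. The groups follow the sample titles.

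The proteasome degrades proteins tagged with ubiquitin. Its core particle is a barrel of alpha and beta rings, and some beta subunits hold the proteolytic sites. The regulatory particle has a base with ATPases that unfold the substrate, and a lid that removes ubiquitin. Rpn4 binds a promoter element called PACE in most proteasome genes and is itself a short-lived substrate of the proteasome, so that the supply of subunits follows demand. In sporulating yeast, protein turnover by autophagy and by the proteasome accompanies the remodelling of the cell.

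PACE is shown because it is a sequence feature that most of these genes share. The choice of genes did not use it, but the element is known from proteasome genes, so its high share among them is no new result. The letters GGTGGCAAA were searched on both strands of the 250 bases before each start codon in RefSeq R64. They were found in 27 of the 34 genes (79.4%), against 67 of all 5617 promoters searched (1.19%), a number that includes the 27. The genes without a match were RPN4, RPN8, RPN10, RPN13, RPN14, PRE5 and PUP1. No promoter of the 34 held more than 1 match. Matches of genes named in the results are printed below with 10 bases on each side, in the direction that reads GGTGGCAAA, which is in capitals. Positions are those of R64, and the build behind the count table is not given in the sources used here.
PRE2, chrXVI:732184-732212, plus strand: acagcaaaagGGTGGCAAAacgaagaata
PRE3, chrX:435035-435063, plus strand: aacggaatccGGTGGCAAAaaagggaaaa
PRE4, chrVI:249959-249987, plus strand: acgtatttaaGGTGGCAAAttctaaacca
PUP2, chrVII:999226-999254, minus strand: aaccaagaccGGTGGCAAAagagtaacct
RPN2, chrIX:220801-220829, minus strand: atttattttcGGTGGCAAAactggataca
RPN3, chrV:196843-196871, minus strand: ctctttcttgGGTGGCAAAtgtttttcgt
RPN5, chrIV:190776-190804, plus strand: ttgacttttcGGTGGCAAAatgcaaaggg
RPN9, chrIV:1322086-1322114, plus strand: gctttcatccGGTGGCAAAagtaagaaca
RPN11, chrVI:153259-153287, plus strand: ggacctccaaGGTGGCAAAttcacaagaa
RPN12, chrVI:252398-252426, minus strand: aatttcaatgGGTGGCAAAtaatgtgtag
RPT5, chrXV:544855-544883, plus strand: gccaatatgtGGTGGCAAAaatgaattaa
A match describes these letters and was not tested as a binding site.

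Total counts per library ran from 16108079 to 36733806. Abundances are in CPM, counts scaled to a common library size by TMM, a normalization that assumes most genes are unchanged. PHO92 had 7571 to 16419 CPM in the 6 CUP1 strains, 0.0381 to 0.753 CPM in pho92Δ and 804 to 924 CPM in WT, as the labels require. Early meiotic markers summed to 7615 to 20900 CPM per library over 8 genes, and haploid-cell markers to 95.9 to 194 CPM over the 6 of 7 that passed the filter. The header of the table puts 22 libraries in a batch A and 2 in a batch B, replicate 2 of L38P and replicate 1 of W177A. The libraries differed in middle meiotic markers (NDT80, SPS1, SPS4, SPR3, SMK1, SMA2, CLB1 and CLB3), which summed to 184 CPM in the lowest library and 9511 CPM in the highest. The highest was replicate 2 of WT, where the other WT libraries had 1822 and 2429 CPM. In bulk RNA, fewer cells at a stage and less RNA per cell cannot be told apart.

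Proteasome transcripts were abundant and similar in level. Together the 34 genes took 1.09% to 2.39% of the counts of a library. Per kilobase of coding sequence, the mean over all libraries lay between 301 CPM for RPN13, a ubiquitin receptor, and 794 CPM for RPT1, an ATPase of the base. All 32 subunit genes thus lay within a 2.64-fold range of length-scaled level. RPN4 had 281 CPM per kilobase and RPN14 had 69.5. L38P had the lowest group mean in CPM for 33 of the 34 genes, and CUP1-PHO92 had the highest for 22. Among the groups, the median over 33 genes of the centred log2 CPM, RPN4 left out, was -0.64 ± 0.23 in L38P, -0.079 ± 0.23 in Δ35–42 and -0.086 ± 0.22 in W177A. It was 0.22 ± 0.15 in L35A, 0.23 ± 0.061 in I39A, 0.34 ± 0.082 in CUP1-PHO92, -0.22 ± 0.10 in pho92Δ and 0.26 ± 0.18 in WT (SD, n = 3 each). In rising order the groups were L38P, pho92Δ, W177A, Δ35–42, L35A, I39A, WT and CUP1-PHO92. Neighbours in this order differed by less than the larger of their SDs, except L38P from pho92Δ and Δ35–42 from L35A.

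**Figure D1:**
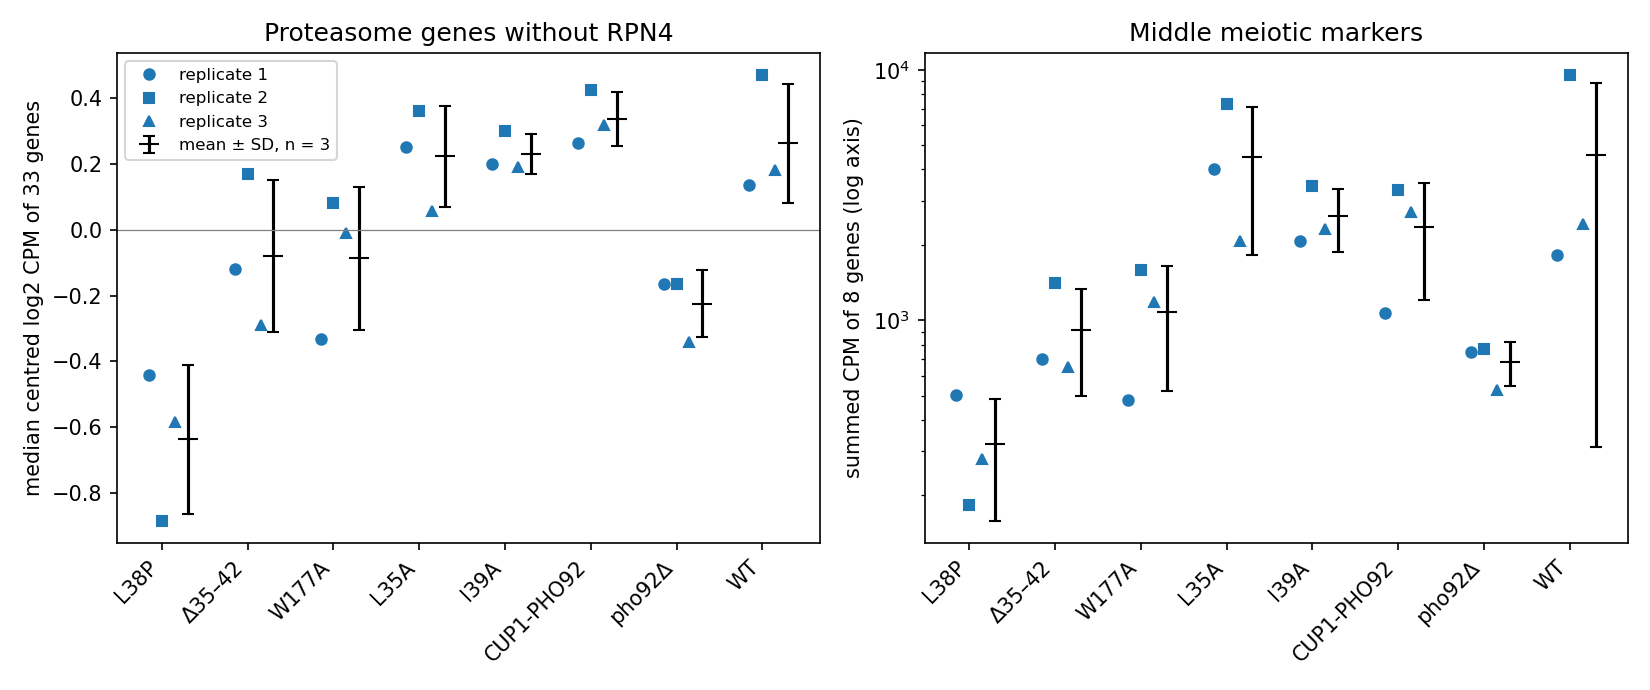
Left, the median centred log2 CPM of 33 proteasome genes (RPN4 left out) in each library by group; right, the summed CPM of 8 middle meiotic markers on a log axis. Points are libraries, shaped by replicate number, and bars are mean ± SD of 3. L38P has the lowest mean in both panels, and replicate 2 of WT is the highest library in both.

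Comparing pho92Δ with WT asked what the absence of the m6A reader does to transcripts. Proteasome genes fell together: 26 of 34 were lower at an adjusted p under 0.05 (edgeR quasi-likelihood test, Benjamini-Hochberg over all features) and none was higher. Over all 5698 features tested, 17.7% were called, 9.48% lower and 8.18% higher. The median log2 fold change of the 34 genes was -0.49, against 0.0030 over all features, so the typical transcript was 0.710 times as abundant. Calls fell in each part of the complex: 5 of 7 alpha ring genes, 5 of 7 beta ring genes, 8 of 10 base genes and 8 of 8 lid genes. The log2 fold changes of the called genes lay between -0.64 and -0.38.

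PRE2, which encodes the beta subunit with the chymotrypsin-like site, had 371, 354 and 284 CPM in pho92Δ, against 462, 649 and 462 CPM in WT. All pho92Δ libraries lay below all WT libraries, and the log2 fold change was -0.64, with an SE of 0.167 and an adjusted p of 0.0127. PUP2, an alpha ring subunit, had 312, 304 and 253 CPM in pho92Δ and 390, 532 and 396 CPM in WT, again without overlap (log2 fold change -0.60, SE 0.164, adjusted p 0.0164). PRE4, a beta subunit, averaged 421 ± 37.9 CPM in pho92Δ and 636 ± 95.7 CPM in WT (SD, n = 3 each; log2 fold change -0.59, SE 0.158, adjusted p 0.0142). In all, 33 of the 34 genes had every pho92Δ library on the low side of every WT library, where 20.2% of all features did and 19% lay wholly on the high side. RPT5, an ATPase of the base, was the exception, with a log2 fold change of -0.01.

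How many genes were called here depended on single libraries. Without replicate 2 of WT, the library highest in middle meiotic markers, none of the 34 was called and the median was -0.35, while 3.72% of all features were still called. Without pho92Δ replicate 3 there was 1 call (median -0.43), without pho92Δ replicate 2 there were 13 (median -0.53), and a model of these 6 libraries by themselves gave 8. For these fits, and for such fits below, no share of all features called is given. Fewer calls among these genes and fewer calls in general cannot be told apart from these counts. With each library's score on the leading axis of within-group variation as a covariate, none was called and the median was -0.13. That score keeps differences between groups: it ran from 10.3 to 21.9 in pho92Δ and from -37.1 to -1.36 in WT. The fit thus takes out part of the contrast itself, and its lost calls decide nothing about the cause. Middle meiotic markers differed between the groups too: they summed to 527 to 771 CPM in pho92Δ and 1822 to 9511 CPM in WT. Their part in the fall of proteasome genes was not tested.

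**Figure D2:**
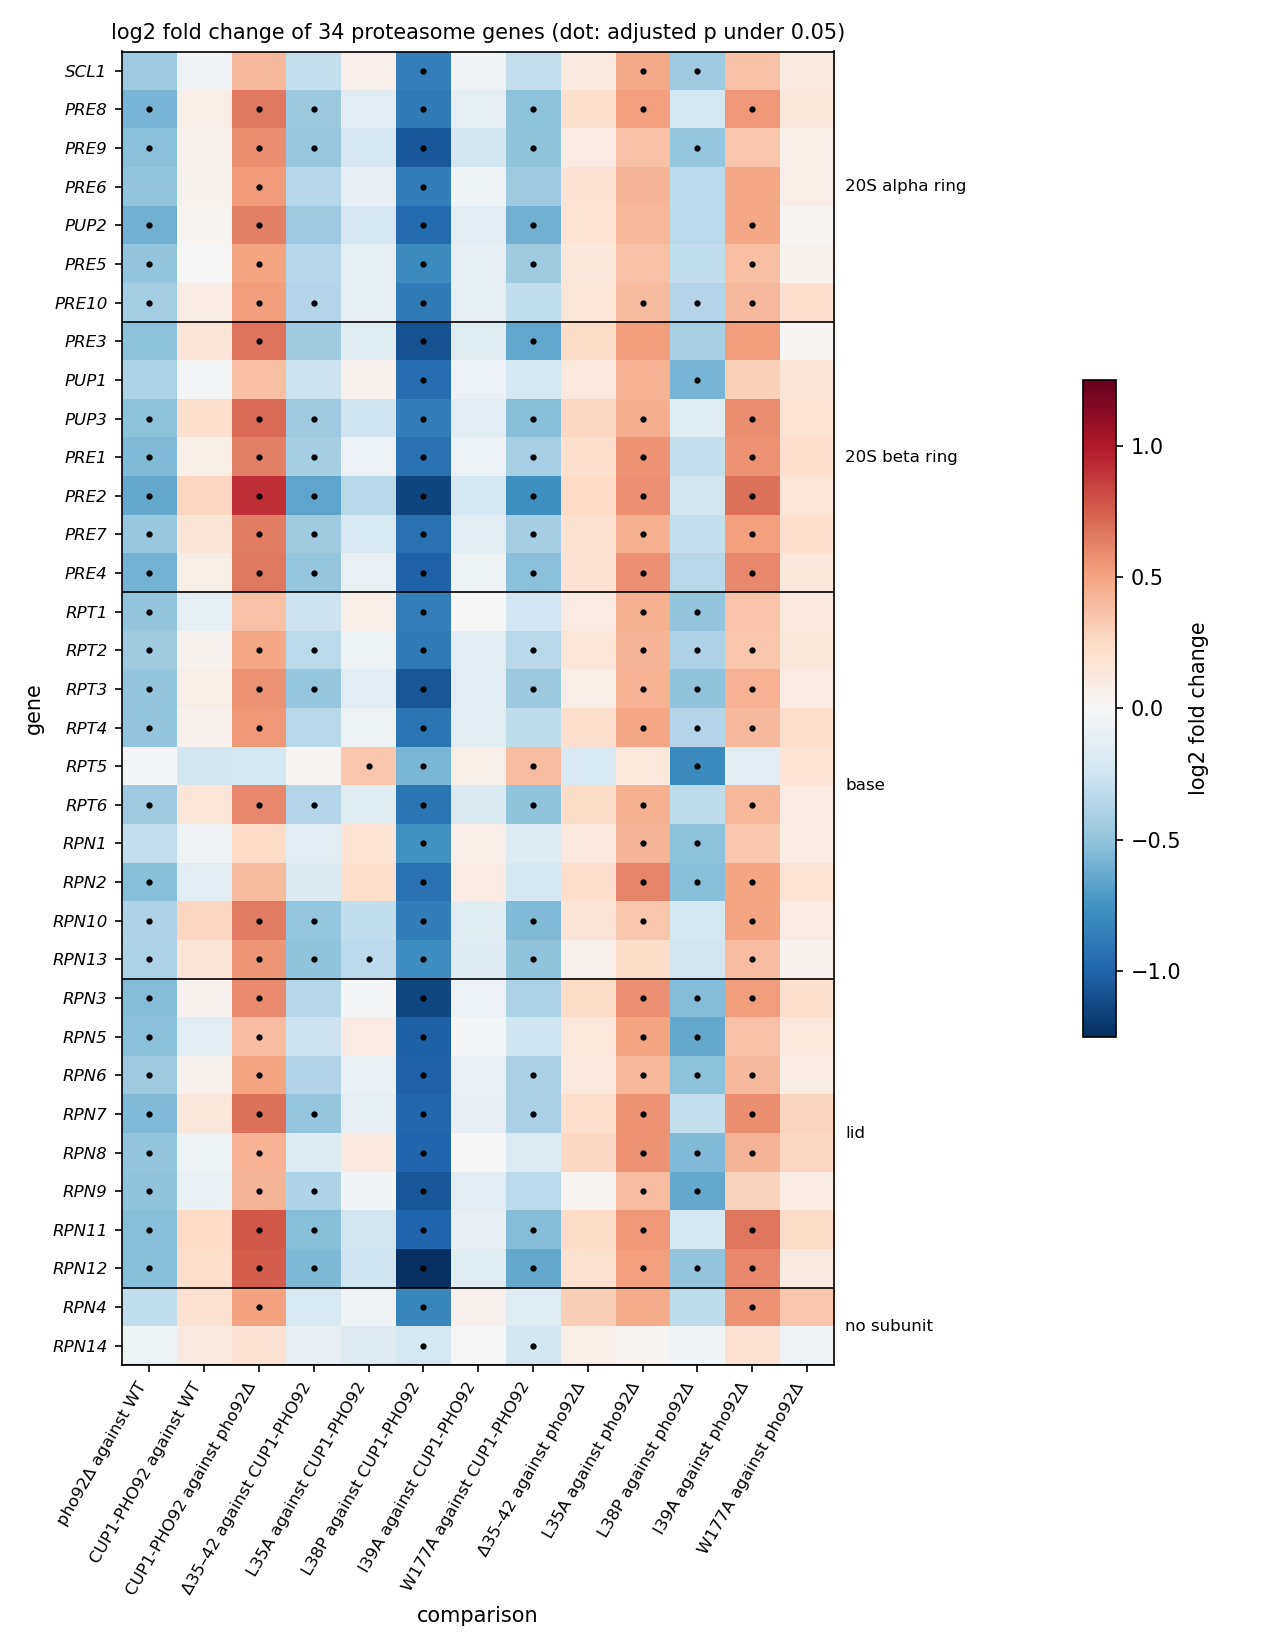
Log2 fold change (colour) of the 34 genes, in rows by part of the complex, in the 13 comparisons, in columns; a dot marks an adjusted p under 0.05. L38P against CUP1-PHO92 is the column in which all 34 are called lower, and RPT5 is a row that departs from its neighbours.

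The comparisons of CUP1-PHO92 asked whether induced Pho92 restores the wild-type state. PHO92 RNA itself was far above its WT level in the CUP1 strains, as given above. Against pho92Δ, 27 of 34 genes rose and none fell (edgeR), with a median log2 fold change of 0.55, against 0.0023 over all features. Of all features tested, 34.6% were called, 16.8% as higher and 17.8% as lower. PRE2 had 593, 701 and 606 CPM in CUP1-PHO92, against 371, 354 and 284 CPM in pho92Δ (log2 fold change 0.91, SE 0.168, adjusted p 0.000405). RPN11, the lid enzyme that cuts ubiquitin from substrates, had 477, 545 and 479 CPM in CUP1-PHO92 and 302, 305 and 272 CPM in pho92Δ (log2 fold change 0.77, SE 0.113, adjusted p 4.83e-05). RPN12, another lid subunit, rose by 0.75 (SE 0.180, adjusted p 0.00352). No library of these genes overlapped between the groups. Of the 34 genes, 33 had groups that did not overlap, RPT5 on the low side and the others on the high side. So did 54.8% of all features, 27% on the high side and 27.8% on the low side. The count was 16 with the axis score as covariate, 15 of them higher and shared with the 27, and leaving out pho92Δ replicate 3 gave 18. Middle meiotic markers moved with the proteasome genes: 5 of 8 rose, with a median log2 fold change of 2.02, and they summed to 1066 to 3303 CPM in CUP1-PHO92 and 527 to 771 CPM in pho92Δ. Their part in the rise was not tested. Axis scores did not overlap between these groups either, so the fit with them takes out part of the contrast.

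Against WT, none of the 34 genes was called in CUP1-PHO92 (edgeR), where 6.93% of all features were. An unadjusted p under 0.05 was reached by 2 of them and by 1369 of all 5698 features tested. DESeq2 also called none. The median log2 fold change was 0.062, and values ran from -0.23 for RPT5 to 0.27 for PRE2. PRE2 averaged 633 ± 59.0 CPM in CUP1-PHO92 and 524 ± 108 CPM in WT (SD, n = 3 each). With the axis score as covariate 5 genes were called higher, and with the within-group axis itself 3, where the model without a covariate called 3.93% of all features higher. The comparisons with pho92Δ and with WT share the CUP1-PHO92 libraries.

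The mutants were set against CUP1-PHO92, which has the same promoter and tag, to ask which residues matter. L38P differed most: all 34 genes fell, with a median log2 fold change of -0.93 (0.525-fold), against 0.042 over all features. Of all features tested, 44% were called, 20.9% as lower and 23.1% as higher. The fall covered 7 of 7 alpha ring genes, 7 of 7 beta ring genes, 10 of 10 base genes and 8 of 8 lid genes, and RPN4 and RPN14 as well. RPN12 had 254, 162 and 223 CPM in L38P, against 492, 553 and 469 CPM in CUP1-PHO92. Its log2 fold change was -1.24 (SE 0.182, adjusted p 3.73e-05). PRE2 had 337, 229 and 294 CPM in L38P, a log2 fold change of -1.14 against CUP1-PHO92 (SE 0.168, adjusted p 3.86e-05). RPN3, a lid subunit, averaged 478 ± 108 CPM in L38P and 1051 ± 121 CPM in CUP1-PHO92 (SD, n = 3 each; log2 fold change -1.14, SE 0.160, adjusted p 2.83e-05). All 34 genes had every L38P library below every CUP1-PHO92 library, as did 23.8% of all features.

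The fall in L38P depended little on single libraries. Leaving out any 1 library left 33 or 34 genes called, and 33 were called with batch A libraries only, which removes replicate 2 of L38P. With the axis score as covariate 27 were called, all of them lower, and the median was -0.48. L38P was also the group with low early meiotic markers, of which 8 of 8 fell, to a sum of 7615 to 11008 CPM in L38P, against 15454 to 19027 CPM in CUP1-PHO92. Middle meiotic markers summed to 184 to 501 CPM in L38P and 1066 to 3303 CPM in CUP1-PHO92, and 7 of 8 fell. Their part in the fall of proteasome genes was not tested. Axis scores ran from 20.7 to 38.1 in L38P and from -16.6 to -1.01 in CUP1-PHO92, so that covariate takes out part of the contrast.

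In Δ35–42, 17 of 34 genes fell against CUP1-PHO92 and none rose (median log2 fold change -0.37, against -0.021 over all features). The background was 21.8% called and 9.97% lower. PRE2 had 390, 479 and 331 CPM in Δ35–42, against 593, 701 and 606 CPM in CUP1-PHO92, with no overlap (log2 fold change -0.66, SE 0.167, adjusted p 0.00862). RPN11 had 352, 397 and 292 CPM in Δ35–42, with no overlap either (log2 fold change -0.53, SE 0.113, adjusted p 0.00285). RPN12 averaged 341 ± 69.9 CPM in Δ35–42 and 505 ± 43.5 CPM in CUP1-PHO92 (SD, n = 3 each; log2 fold change -0.56, SE 0.180, adjusted p 0.0307). The calls covered 3 of 7 alpha ring, 5 of 7 beta ring, 5 of 10 base and 4 of 8 lid genes. Libraries did not overlap in 23 genes, all on the low side, and in 38.3% of all features, 19.4% on the low and 18.9% on the high side. The count fell to 3 without Δ35–42 replicate 3, to 4 without Δ35–42 replicate 1 or CUP1-PHO92 replicate 2, to 7 without CUP1-PHO92 replicate 3 and to 11 without CUP1-PHO92 replicate 1. It was 4 in a model of these 6 libraries and 7 with the axis score. Without Δ35–42 replicate 2 it was 24. The call of RPN12 was lost in every one of these fits except that without Δ35–42 replicate 2, and that of PRE2 without Δ35–42 replicate 3 (adjusted p 0.0522). The median lay between -0.53 and -0.27 in the fits without 1 library and was -0.20 with the axis score. Middle meiotic markers summed to 648 to 1403 CPM in Δ35–42 and 1066 to 3303 CPM in CUP1-PHO92.

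In W177A, 20 of 34 genes fell and 1 rose against CUP1-PHO92 (median log2 fold change -0.41, against -0.013 over all features). The background was 27.9% called, 13% lower and 14.9% higher. PRE2 again led, with 336, 403 and 380 CPM in W177A and a log2 fold change of -0.76 relative to CUP1-PHO92 (SE 0.167, adjusted p 0.00258). PRE3, the beta subunit with the caspase-like site, had 255, 367 and 323 CPM in W177A, against 466, 519 and 499 CPM in CUP1-PHO92 (log2 fold change -0.65, SE 0.190, adjusted p 0.0158). RPN12 had 250, 372 and 349 CPM in W177A (log2 fold change -0.64, SE 0.180, adjusted p 0.0131). For each of these genes all W177A libraries lay below all CUP1-PHO92 libraries. The gene that rose was RPT5. Replicate 1 of W177A, the batch B library with the most counts, was the lowest W177A library for all of these genes. Without it 7 genes were called and the median was -0.28, and PRE3 and RPN12 missed the threshold (adjusted p 0.0787 for PRE3 and 0.0737 for RPN12). The call of RPN12 was also lost without CUP1-PHO92 replicate 2 (adjusted p 0.0501), and that of PRE3 with batch A libraries only (adjusted p 0.0535). With batch A libraries only 9 were called (8 lower and RPT5 higher), and without CUP1-PHO92 replicate 2 there were 11. The axis score left 14 lower and RPT5 higher, with a median of -0.24. Middle meiotic markers summed to 480 to 1594 CPM in W177A.

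In L35A and I39A few of these genes or none passed the test against CUP1-PHO92, and most values were small. They were negative for 26 of 34 genes in L35A and for 29 of 34 in I39A. Of the 5625 tested features that neither are proteasome genes nor hold PACE, 2878 were negative in L35A and 2863 in I39A. In L35A, 1 gene rose and 1 fell, where 22.6% of all features were called, and the median log2 fold change was -0.11, against -0.0083 over all features. RPT5 had 668, 649 and 605 CPM in L35A, against 466, 537 and 503 CPM in CUP1-PHO92 (log2 fold change 0.35, SE 0.114, adjusted p 0.0319). RPN13 had 146, 158 and 130 CPM in L35A and 185, 184 and 174 CPM in CUP1-PHO92 (log2 fold change -0.32, SE 0.111, adjusted p 0.0427). RPN13 missed the threshold without any 1 of the 6 libraries and RPT5 without any but CUP1-PHO92 replicate 2 or L35A replicate 3, so each such fit called 0 or 1 of the 34, and with the axis score 14 were called, 13 of them lower. Those 14 include both genes, and the median was then -0.21. The share of all features called in that fit is not given here, so the 14 have no background beside them. In I39A none of the 34 was called (edgeR), none had an unadjusted p under 0.05, and DESeq2 called none. Of all features 0.0527% were called there, and 741 of the 5698 tested had an unadjusted p under 0.05. The median was -0.11, against -0.0043 over all features, and values ran from -0.23 to 0.11. PRE2 averaged 542 ± 30.8 CPM in I39A and 633 ± 59.0 CPM in CUP1-PHO92 (SD, n = 3 each). Most middle meiotic markers had values of the other sign here. Their log2 fold changes were positive for 8 of 8 in L35A (median 0.91) and 7 of 8 in I39A (median 0.099), with 0 called in either. They summed to 2076 to 7310 CPM in L35A and 2073 to 3446 CPM in I39A. Both ranges overlapped with the 1066 to 3303 CPM of CUP1-PHO92. Their part in the values of proteasome genes was not tested.

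**Figure D3:**
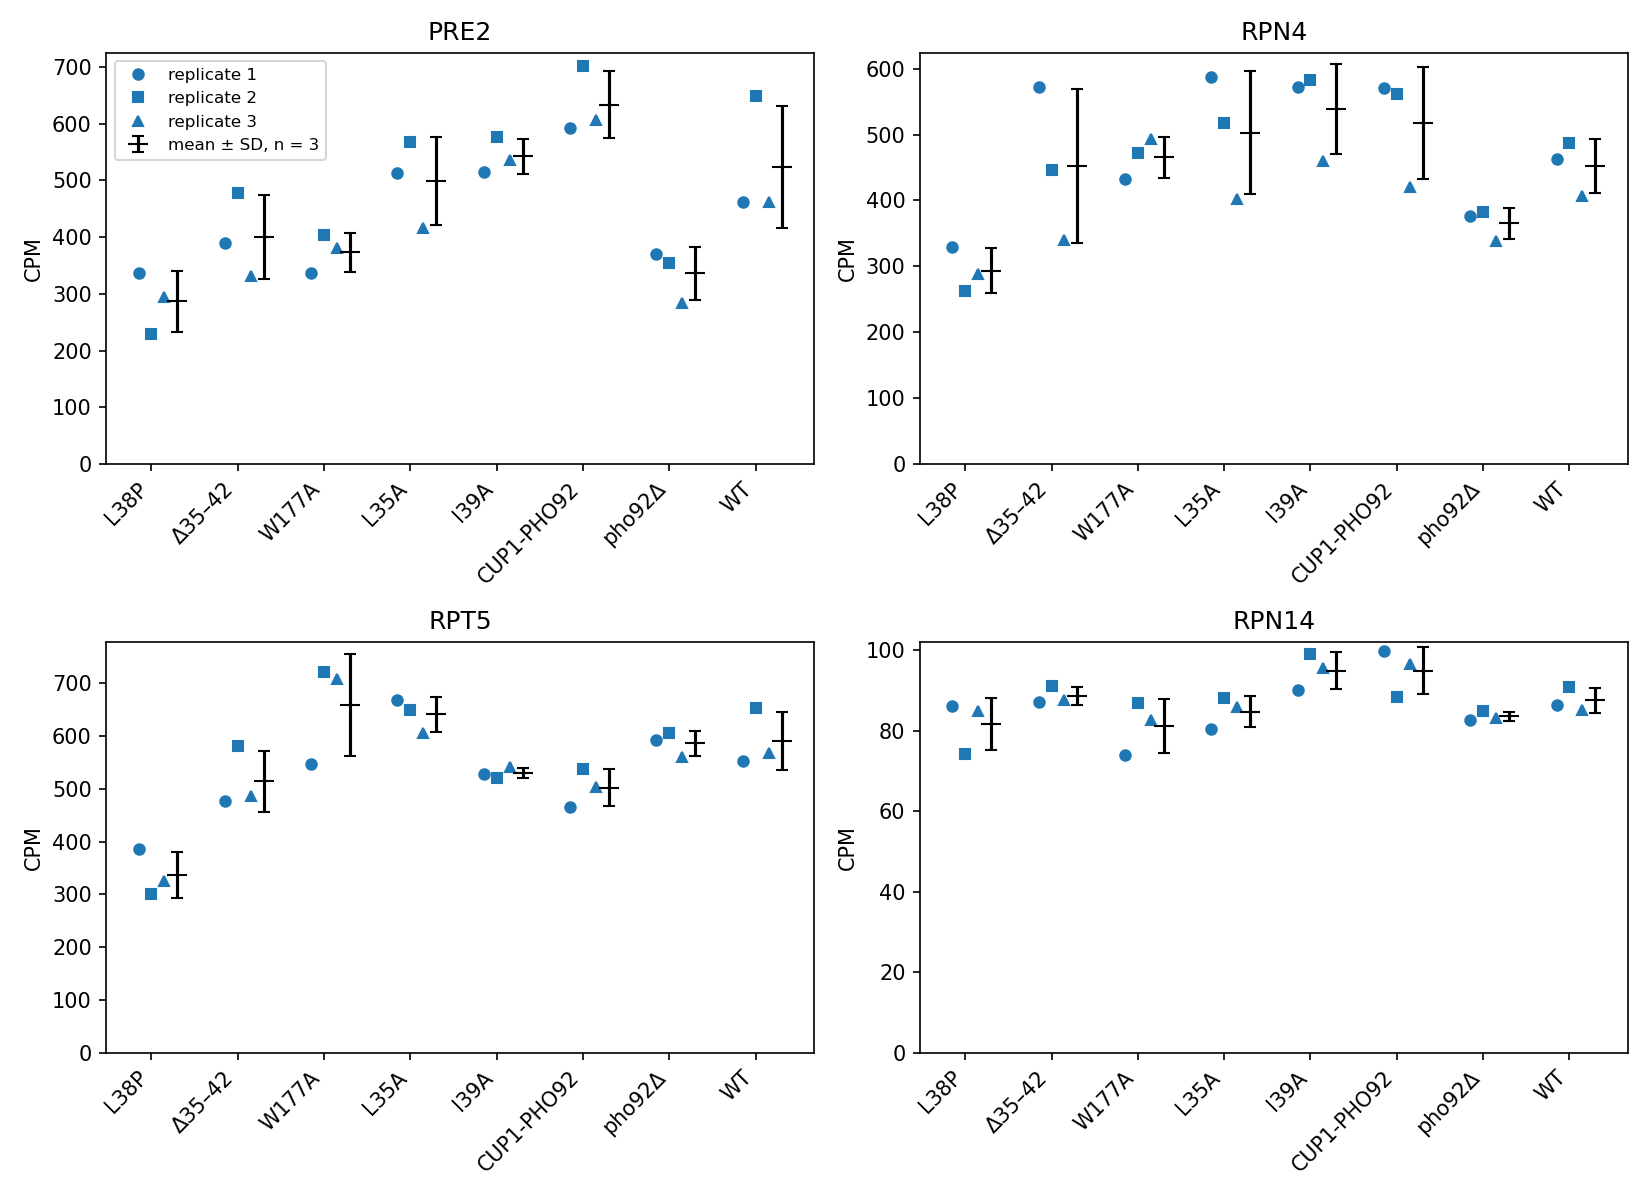
CPM of PRE2, RPN4, RPT5 and RPN14 in each library, by group on the horizontal axis; points are libraries, shaped by replicate number, and bars are mean ± SD of 3. PRE2 is low in L38P, Δ35–42, W177A and pho92Δ, RPT5 has its lowest mean in L38P and its highest in W177A, and RPN14 stays between 73.9 and 99.7 CPM.

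Comparing each mutant with pho92Δ asked how far it differed from having no Pho92. In Δ35–42 and W177A none of the 34 genes was called (edgeR), and DESeq2 called none. The background was 0.105% in Δ35–42 and 1.35% in W177A, so few features of any kind passed. An unadjusted p under 0.05 was reached by 1 gene in Δ35–42 and by 0 in W177A. Of all 5698 features tested, 584 reached it in Δ35–42 and 782 in W177A. Medians were 0.17 in Δ35–42 and 0.14 in W177A, against 0.00090 and 0.019 over all features, and 33 of 34 values were above 0 in each. A p above the threshold does not show that these groups had the same levels. PRE2 had 390, 479 and 331 CPM in Δ35–42 and 336, 403 and 380 CPM in W177A, both overlapping with the 371, 354 and 284 CPM of pho92Δ.

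L38P had less proteasome transcript than pho92Δ. There 17 genes fell and none rose, where 29.4% of all features were called and 14.1% were lower. The median log2 fold change was -0.37, against 0.020 over all features. RPT5 had 385, 302 and 325 CPM in L38P, against 592, 605 and 560 CPM in pho92Δ (log2 fold change -0.80, SE 0.114, adjusted p 6.28e-05). The lid gene RPN5 had a log2 fold change of -0.64, with an SE of 0.141 and an adjusted p of 0.00221. The lid gene RPN9 had one of -0.64, with an SE of 0.127 and an adjusted p of 0.00098. Lid genes fell in 6 of 8 cases and base genes in 7 of 10, and of the core 3 of 7 alpha ring and 1 of 7 beta ring genes fell. No test compared these parts with each other. The call rested partly on L38P replicate 2, from batch B: without it 3 genes were called and the median was -0.26, and with batch A libraries only 5 were. Leaving out L38P replicate 3 or pho92Δ replicate 2 gave 9 each, and leaving out pho92Δ replicate 1 gave 11. The axis score left 16 (median -0.20), and the within-group axis itself gave 31. All 8 early meiotic markers were lower in L38P here too.

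L35A and I39A had more proteasome transcript than pho92Δ. In L35A 24 genes rose (median log2 fold change 0.45, against -0.0057 over all features) and in I39A 23 rose (median 0.43, against 0.0021), and none fell in either. The background was 21% called and 9.86% higher in L35A, and 20.8% called and 10.4% higher in I39A. RPN2, the scaffold of the base, had 1911, 1798 and 1509.5 CPM in L35A, against 1135, 1162 and 1119 CPM in pho92Δ (log2 fold change 0.61, SE 0.156, adjusted p 0.0111). RPN3 rose by 0.57 (SE 0.159, adjusted p 0.0163) and PRE2 by 0.57 (SE 0.167, adjusted p 0.0212) in L35A. In I39A, PRE2 had 515, 576 and 536 CPM (log2 fold change 0.69, SE 0.167, adjusted p 0.0079). RPN11 rose by 0.67 (SE 0.113, adjusted p 0.000598) and RPN12 by 0.60 (SE 0.180, adjusted p 0.0237) in I39A. All 34 genes had I39A libraries that did not overlap with pho92Δ, 33 of them on the high side, as did 24.8% of all features.

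These counts depended on single libraries as well. RPN2, RPN3 and PRE2 missed the threshold in L35A without its replicate 1 or 2, and RPN3 and PRE2 without pho92Δ replicate 3. In I39A, RPN12 missed it without I39A replicate 2 or pho92Δ replicate 2 or 3, and PRE2 without pho92Δ replicate 3. The number of genes called in L35A was 1 without L35A replicate 2, 3 without pho92Δ replicate 3, 6 without L35A replicate 1, 13 without pho92Δ replicate 1 and 15 without pho92Δ replicate 2. In I39A it was 3 without pho92Δ replicate 3, 4 without I39A replicate 2, 9 without pho92Δ replicate 2, and 12 without I39A replicate 1 or pho92Δ replicate 1. With the axis score none was called in L35A (median 0.033) and 1, RPN11, in I39A (median 0.10). Neither group overlapped with pho92Δ in that score, so those fits take out part of the contrast. Leaving out L35A replicate 3 gave 29 and I39A replicate 3 gave 16. The medians without 1 library lay between 0.38 and 0.54 in L35A and between 0.38 and 0.46 in I39A. Middle meiotic markers summed to 2076 to 7310 CPM in L35A, 2073 to 3446 CPM in I39A and 527 to 771 CPM in pho92Δ. CUP1-PHO92 or pho92Δ libraries are shared by all comparisons of the mutants.

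RPN4, the transcription factor, was called in 3 of the 13 comparisons. It had 330, 263 and 289 CPM in L38P, against 571, 561 and 420 CPM in CUP1-PHO92, the only call among the comparisons of mutants with CUP1-PHO92 (log2 fold change -0.82, SE 0.169, adjusted p 0.000746). The call was lost with the axis score (log2 fold change -0.49, adjusted p 0.119). In Δ35–42 it had 573, 447 and 340 CPM and in W177A 432, 472 and 493 CPM, both overlapping with CUP1-PHO92. The log2 fold change was -0.19 in Δ35–42 (SE 0.168, adjusted p 0.423). In W177A it was -0.15 (SE 0.168, adjusted p 0.521). In pho92Δ it had 376, 382 and 339 CPM, against 463, 487 and 407 CPM in WT, without overlap but not past the threshold (log2 fold change -0.31, SE 0.168, adjusted p 0.229). Against pho92Δ it rose in CUP1-PHO92 by 0.50 (SE 0.168, adjusted p 0.0273) and in I39A by 0.56 (SE 0.168, adjusted p 0.025). Both calls were lost with the axis score and when any library but replicate 3 of CUP1-PHO92 or of I39A was left out. In L35A its log2 fold change against pho92Δ was 0.46 (adjusted p 0.0572, and 0.0166 with a replicate block, where same-numbered libraries deviated together). In the remaining comparisons, with adjusted p of 0.162 or more, values were -0.32 in L38P, 0.31 in Δ35–42 and 0.35 in W177A against pho92Δ. They were 0.20 in CUP1-PHO92 against WT, and -0.04 in L35A and 0.06 in I39A against CUP1-PHO92. Whether RPN4 changed less than the subunit genes was not tested.

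Among the subunits, RPT5 was singled out after its values were seen. It had 592, 605 and 560 CPM in pho92Δ and 552, 653 and 567 CPM in WT. In W177A it had 546, 720 and 708 CPM, above the 466, 537 and 503 CPM of CUP1-PHO92 in every library (log2 fold change 0.39, SE 0.114, adjusted p 0.016). The other ATPase genes of the base, RPT1, RPT2, RPT3, RPT4 and RPT6, had negative values in that comparison, between -0.50 and -0.24. In L38P RPT5 fell with the rest, by 0.58 against CUP1-PHO92 (SE 0.114, adjusted p 0.000527). Other subunits also missed the threshold in Δ35–42 and W177A against CUP1-PHO92, among them RPN8 (log2 fold change -0.17 in each). RPN14, the base chaperone, was likewise singled out after its values were seen. It fell in L38P (log2 fold change -0.22, SE 0.0761, adjusted p 0.0275) and in W177A (-0.23, SE 0.0761, adjusted p 0.0329), both against CUP1-PHO92. Over all libraries RPN14 lay between 73.9 and 99.7 CPM.

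The genes with and without PACE moved in the same direction. In L38P against CUP1-PHO92, the median log2 fold change was -0.93 in the 27 with the element and -0.82 in the 7 without. In pho92Δ against WT these were -0.51 and -0.39, in Δ35–42 against CUP1-PHO92 -0.39 and -0.26, and in W177A against CUP1-PHO92 -0.42 and -0.23. The 7 include RPN4 and RPN14, which encode no subunit and had -0.19 and -0.098 in Δ35–42 and -0.15 and -0.23 in W177A. The subunit genes without the element ran from -0.50 (RPN13) to -0.17 (RPN8) in Δ35–42. In W177A they ran from -0.55 (RPN10) to -0.17 (RPN8). The sets thus differ in more than the element. RPT5 holds the element, as its printed sequence shows, and RPN14 does not. Outside the list, 40 genes of the table hold the letters, and 39 of them were tested. In L38P against CUP1-PHO92 22 of these 39 fell and 2 rose, with a median of -0.37. In pho92Δ against WT 4 fell and 2 rose (median -0.13), in Δ35–42 against CUP1-PHO92 2 fell and 1 rose (median -0.039), and in W177A against CUP1-PHO92 3 fell and 8 rose (median 0.011). Over all features tested, 44% were called in L38P, 17.7% in pho92Δ, 21.8% in Δ35–42 and 27.9% in W177A in these comparisons, so outside L38P the calls among the other PACE genes lay near or below that share. No test compared the sets.

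**Figure D4:**
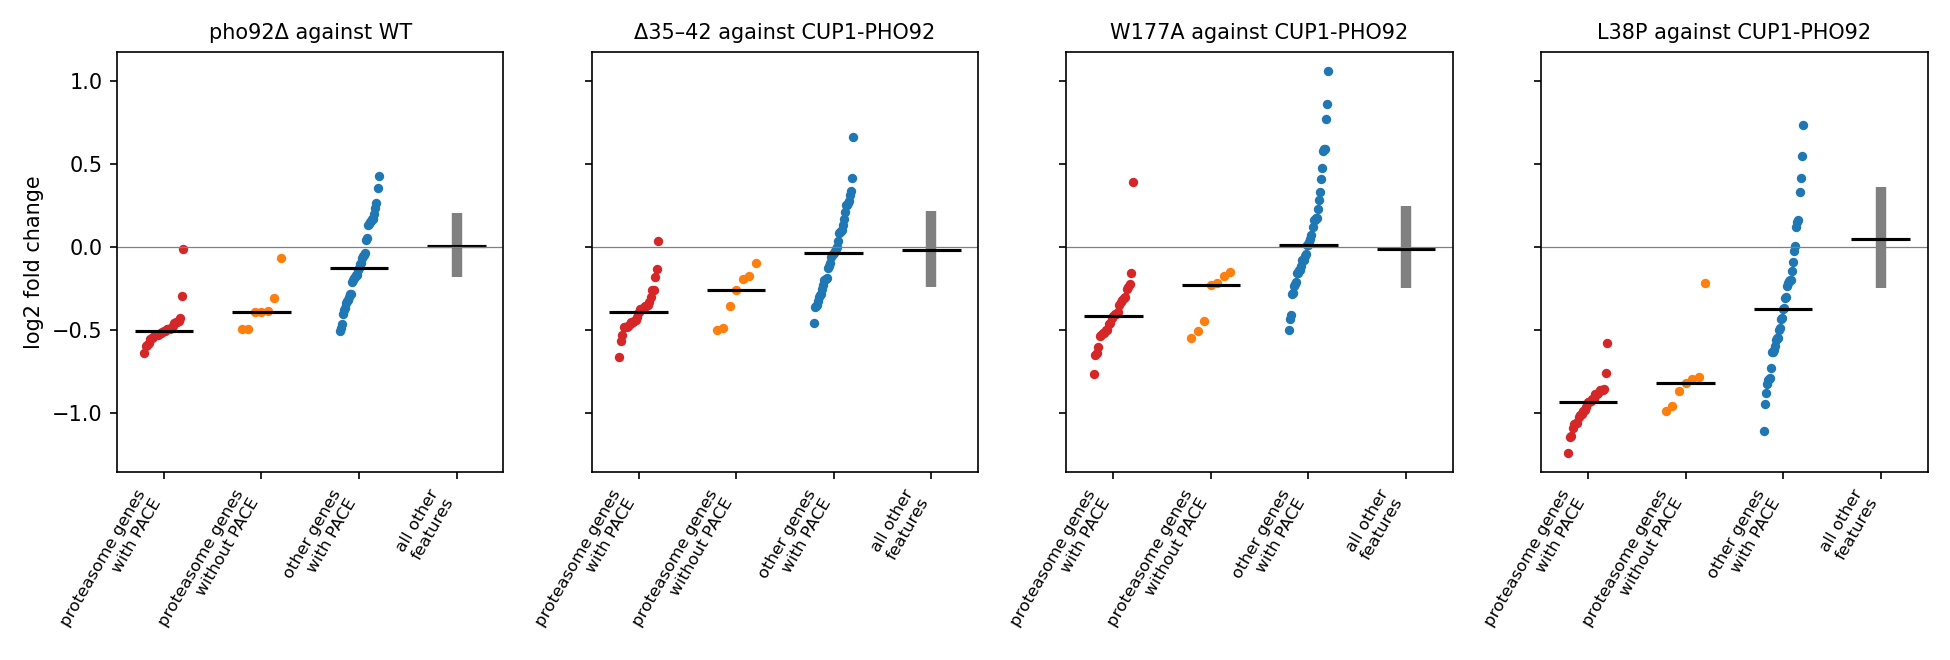
Log2 fold changes in 4 comparisons of the 27 proteasome genes with a PACE match, the 7 without and the 39 tested other genes with a match; points are genes and black lines medians. The grey bar spans the quartiles of all other features. Proteasome genes lie below 0 in all 4 panels except RPT5 in Δ35–42 and in W177A against CUP1-PHO92.

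Genes that serve the proteasome without being on the list were counted in the same fits, and the share of all features called is given beside each comparison. In L38P against CUP1-PHO92, 5 of 8 assembly chaperones, 4 of 5 proteasome-associated proteins and 9 of 11 genes of ubiquitin and its delivery fell, and none rose (44% called, 20.9% lower). UMP1, the chaperone that matures the core, fell by 1.21 (SE 0.179, adjusted p 3.88e-05). UBP6, a deubiquitinase of the base, had a log2 fold change of -0.99 and DSK2, a shuttle for ubiquitinated proteins, one of -0.98 (adjusted p 1.72e-05 for UBP6 and 3.76e-05 for DSK2). In pho92Δ against WT, 1 of 8 chaperones fell and 1 rose, 2 of 5 associated proteins fell, and 3 of 11 ubiquitin genes fell and 1 rose (17.7% called, 9.48% lower). UMP1 fell there by 0.62 (SE 0.177, adjusted p 0.0195), and UFD1, a cofactor of the Cdc48 unfoldase, fell by 0.62 (SE 0.153, adjusted p 0.00928). SEM1, a small lid subunit that the symbol rule misses, fell by 0.50 (SE 0.122, adjusted p 0.00907). In Δ35–42 against CUP1-PHO92, 2 of 8, 1 of 5 and 2 of 11 fell in the same order of lists and 1 of 5 rose (21.8% called, 9.97% lower). In W177A 5 of 8, 2 of 5 and 4 of 11 fell, while 2 of 5 and 2 of 11 rose (27.9% called, 13% lower). Several of these small counts lie near the share over all features and are no result about the lists. BLM10, which encodes an alternative activator of the core, rose in both, by 0.51 in Δ35–42 (SE 0.127, adjusted p 0.00821) and by 0.64 in W177A (SE 0.128, adjusted p 0.0012). BLM10 was also higher in L35A, by 0.59 (SE 0.127, adjusted p 0.00328), where 1 of 5 associated proteins and 1 of 11 ubiquitin genes rose and 2 of 8 chaperones fell (22.6% called). Of the regulators of RPN4 expression or Rpn4 stability (YAP1, PDR1, PDR3, HSF1, UBR2 and MUB1), 4 of 6 fell in L38P against CUP1-PHO92, led by MUB1, a partner of Ubr2 in Rpn4 degradation (log2 fold change -0.74, adjusted p 8.99e-05). In L35A against CUP1-PHO92 all 6 were positive and 1, PDR1, rose (median 0.34), and in W177A 5 of 6 were positive and 1, again PDR1, rose (median 0.21). In pho92Δ against WT 0 of 6 were called by edgeR, and 0 had an unadjusted p under 0.05. Of all 5698 features tested, 17.7% were called there and 1759 had an unadjusted p under 0.05.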

How the data were processed

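Per the labels, the RNA of all 24 libraries was polyadenylated. A directional kit and paired-end reads are stated for degron strains, and nothing says which samples these are. The authors deposited raw counts per annotated feature, without normalization. The submitters' processing notes name STAR 2.7.10a, RSEM 1.3.1 and DESeq2 1.48.1. Build, annotation, strand setting and rounding are not given in the sources used here. The members, gene lists, comparisons and alternatives were chosen with earlier results of these data known.

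Of 6157 features, 5620 matched a locus tag of RefSeq R64, which gave names, coding lengths and promoter sequences. No member's coding span overlaps another annotated coding gene there. With edgeR 4.0.16 in R 4.3.3 (limma 3.58.1), filterByExpr left 5698 features and 459 were removed, and TMM scaled the libraries. One quasi-likelihood model with a coefficient for each group took all 24 libraries (16 residual degrees of freedom) and gave 13 comparisons. Within each, the Benjamini-Hochberg adjustment ran over every feature tested, with a threshold of 0.05. Errors are SD over 3 libraries or SE of a log2 fold change, and log2 CPM used a prior count of 2. At these depths 3 counts equal 0.0828 to 0.179 CPM, a floor for counting error only. The method was also run on simulated counts, drawn for each gene on its own. Those hold no variation shared between genes beyond library size, so they do not bear on counts of genes that move together.

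Named genes were RPN4, the 3 called members with the largest absolute log2 fold change in each comparison and, from each list of other genes, the called member with the largest one. RPN14, and RPT5 where it was not among the 3, were chosen after their values were seen. Alternatives were RLE scaling, no filter, a replicate block, the 6 libraries compared alone, DESeq2 1.42.0, a minimum absolute log2 fold change of 0.5, batch A only (22 libraries, the header giving 2 to batch B), each library left out, and covariates for the leading axis of within-group variation (35.7% of it). That axis entered as its within-group part or, added after seeing the data, as each library's projected score. The score keeps differences between groups, so lost calls and smaller medians with it can follow from its construction. Same-numbered libraries deviated together at r over 0.1 in all 3 pairs for Δ35–42, L35A and I39A against CUP1-PHO92 and for L35A and W177A against pho92Δ. The labels give no origin for this pairing.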

Additional observations from a re-analysis of the deposited data

How the results depend on the processing

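The median log2 fold change over the 34 genes kept its sign in all alternatives run, except that in CUP1-PHO92 against WT, where no gene was called, it was -0.019 without WT replicate 1. No called change of a named gene reversed. Counts of called members did not all hold. Apart from the fit without WT replicate 2, these counts have no share of all features from the same fit beside them. With RLE scaling the count of 2 in L35A against CUP1-PHO92 was 1. Without a filter it was 1, and the counts were 8 in Δ35–42 against CUP1-PHO92 and 14 in I39A against pho92Δ. A model of the 6 libraries compared gave 8 in pho92Δ against WT, 4 in Δ35–42 and 0 in L35A against CUP1-PHO92. A minimum absolute log2 fold change of 0.5 left 14 in pho92Δ against WT. It left 4 in Δ35–42, 0 in L35A and 11 in W177A against CUP1-PHO92, and 10 in L35A, 10 in L38P and 11 in I39A against pho92Δ. Batch A libraries alone gave 9 in W177A against CUP1-PHO92 and 5 in L38P against pho92Δ. The within-group axis gave 3 in CUP1-PHO92 against WT, 6 in L35A and 27 in Δ35–42 against CUP1-PHO92, and 31 in L38P against pho92Δ. That axis is drawn from the spread of these same libraries and takes out part of it by construction, so these higher counts add no support. The axis score, added after seeing the data, gave 0 in pho92Δ against WT, 5 in CUP1-PHO92 against WT and 16 in CUP1-PHO92 against pho92Δ. It gave 7 in Δ35–42 and 14 in L35A against CUP1-PHO92, and 0 in L35A and 1 in I39A against pho92Δ. The cause of these changes was not tested.

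Leaving out 1 library in turn gave 0 to 29 calls in pho92Δ against WT and 18 to 26 in CUP1-PHO92 against pho92Δ. Against CUP1-PHO92 it gave 3 to 24 in Δ35–42, 0 to 1 in L35A, 33 to 34 in L38P and 7 to 24 in W177A. Against pho92Δ it gave 1 to 29 in L35A, 3 to 19 in L38P and 3 to 16 in I39A. The other comparisons gave 0 each time. The replicate block, with counts of 29 in pho92Δ against WT, 30 in CUP1-PHO92 against pho92Δ, 21 in Δ35–42, 3 in L35A, 34 in L38P and 25 in W177A against CUP1-PHO92, and 28 in L35A, 17 in L38P and 26 in I39A against pho92Δ, changed no count by more than 1.5 times. DESeq2 gave no count outside 1.5 times the edgeR count.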
